A study of Mus musculus with 12 samples.

Results

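Ralgds, the guanine nucleotide exchange factor that gave its name to the family of Ras-binding activators of Ral, was followed with its relatives Rgl1, Rgl2 and Rgl3 and the GTPases Rala and Ralb through 12 RNA-seq libraries of B16F10 mouse melanoma cells. These are 6 of the 54232 genes in the deposited count table, and all 6 passed the filter on low counts that left 14924 genes for testing. Ralgds was chosen because its level was high in cells given T-cell material that the sample labels call lysosomes. The other 5 genes were chosen by family and name. Values of Ralgds in those cells are therefore a description and carry no test.

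The libraries fall into 4 groups of 3. WT libraries (WT 1, WT 2 and WT 3) are untreated B16F10 cells. Lyso libraries (Lyso 1, Lyso 2 and Lyso 3) are B16F10 cells incubated with lysosomes taken from T cells, for 48 hours by the sample labels, while the study's methods give a shorter incubation. The Relapsed libraries (ITF1, Rel and ITM) are cell lines cultured from B16F10 tumors that came back after immunotherapy, and the labels do not say which therapy each line had met. The Tumor libraries (Tumor 1, Tumor 3 and Tumor 4) are B16F10 cells that were sorted by flow cytometry out of relapsed tumors, with no culture before their RNA was taken. Tumors were grown under the skin of C57BL/6 mice, 6 weeks old by the sample labels, while the study's methods give an older range. No label ties the replicates of a group to separate cultures or mice, apart from the 3 named relapsed lines, so p-values measure the spread between these libraries, part of which may be technical.

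Counts on genes ran from 1667398 in WT 1 and 2350129 in WT 2 to 16384021 in WT 3, from 10895611 to 12675277 in Lyso, from 12749399 to 16402629 in Relapsed and from 3102442 to 5049496 in Tumor, so depth differed between groups and within WT. Levels are given as CPM, the counts of a gene scaled to a common library size with TMM factors. On this scale 3 counts correspond to 1.698 CPM in WT 1 and to 0.1797 CPM in ITM, the most deeply sequenced library. All 10 melanocyte markers were present in every library. Markers of other cells were not equally low: the summed level of 10 fibroblast markers was 7889 to 10869 CPM in Tumor against 89.77 to 164.7 CPM in WT and Relapsed, and the summed level of 12 T-cell markers was 18.3 to 22.73 CPM in Lyso against 1.415 to 6.792 CPM in WT.

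Ral proteins are small GTPases that switch between a form bound to GDP and a form bound to GTP. Ralgds, Rgl1, Rgl2 and Rgl3 bind active Ras through a Ras-association domain and load Ral with GTP, which makes them a route from Ras to Ral beside the Raf kinases and phosphatidylinositol 3-kinases. The Ral GTPase-activating complex turns Ral off. Active Ral binds the exocyst, which tethers vesicles at the plasma membrane. In melanoma, where Ras or Raf signaling is often mutated, Ral has been studied for its part in growth and in invasion.

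The promoters of Ralgds, a gene chosen for its level in Lyso, are shown beside that of a relative, Rgl3. Ralb and a later Rgl1 start also had bases ahead of the first exon, which are not printed. Any link between these letters and the levels was not tested. RefSeq starts on GRCm38.p6 gave 8 windows of 250 bases for the 6 genes, and only bases ahead of the first annotated exon are printed, 5′ to 3′ on the strand of the gene. The first Ralgds window, at chr2:28512917-28513124 on the plus strand, holds the E-box letters CACGTG, given in capitals. The second Ralgds window, at chr2:28533214-28533354 on the plus strand, lies ahead of a later start inside the gene. The Rgl3 window, at chr9:21989454-21989703 on the minus strand, holds the STAT letters TTCNNNGAA, given in capitals.
Ralgds first start: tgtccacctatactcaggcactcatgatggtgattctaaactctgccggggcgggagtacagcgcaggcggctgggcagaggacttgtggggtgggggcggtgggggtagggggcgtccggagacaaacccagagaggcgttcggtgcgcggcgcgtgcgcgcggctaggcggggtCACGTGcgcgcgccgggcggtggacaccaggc
Ralgds second start: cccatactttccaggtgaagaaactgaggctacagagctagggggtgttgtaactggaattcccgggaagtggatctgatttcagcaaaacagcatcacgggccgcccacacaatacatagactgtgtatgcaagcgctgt
Rgl3: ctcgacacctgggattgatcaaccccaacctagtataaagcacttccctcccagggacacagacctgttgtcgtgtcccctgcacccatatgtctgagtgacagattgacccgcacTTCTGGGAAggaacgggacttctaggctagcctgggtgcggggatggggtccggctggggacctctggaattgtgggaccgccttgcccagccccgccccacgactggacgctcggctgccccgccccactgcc
Motifs of 6 kinds were searched on both strands, and they were chosen with results of these data known. The E-box letters CACGTG, 74 bases ahead of the first Ralgds start, were in 6.02% of 32851 mouse promoter windows of the same length, and they also occurred ahead of Ralb and ahead of one Rgl1 start. The EGR letters GCGNGGGCG, in 4.7% of the windows, occurred ahead of Ralb and Rgl1 and not ahead of Ralgds. The STAT letters, in 7.02% of the windows, occurred ahead of Rgl3 only. None of the 8 windows held the NF-kappaB letters (GGGA, any base, TTTCC), the AP-1 letters TGANTCA or the interferon-stimulated response element (GAAA, any pair of bases, GAAA), which were in 0.356%, 6.75% and 2.98% of the windows, and no match overlapped another.

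Ralgds (ENSMUSG00000026821, GRCm38 chr2:28513125-28553081, plus strand) was lowest in the cultured cells that had not met the T-cell material and highest in those that had. Its level was 35.66, 32.09 and 29.60 CPM in WT 1, WT 2 and WT 3, a mean of 32.45 ± 3.044 (SD, n = 3). The relapsed lines ITF1, Rel and ITM stood at 29.10, 50.34 and 34.57 CPM, a mean of 38.00 ± 11.03. WT and Relapsed overlapped, with Rel above every WT library. In Tumor 1, Tumor 3 and Tumor 4 the level was 63.06, 67.83 and 85.68 CPM, a mean of 72.19 ± 11.92. In Lyso 1, Lyso 2 and Lyso 3 it was 185.7, 166.2 and 156.4 CPM, a mean of 169.4 ± 14.95. The order of the groups was thus Lyso, Tumor, then Relapsed and WT, and the neighbours Relapsed and WT were the ones that did not differ beyond their spread.

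In Lyso the mean of Ralgds was 2.40 higher than in WT on the log2 scale (SE 0.20), a 5.29-fold ratio, 2.16 higher than in Relapsed, a 4.45-fold ratio, and 1.23 higher than in Tumor, a 2.34-fold ratio. The counts behind these values were 1970, 1784 and 1931 reads in Lyso and 63, 76 and 502 in WT. Of the WT libraries only WT 3 was sequenced as deeply as Lyso, and against WT 3 alone the log2 difference was 2.50, while against WT 1 and WT 2 it was 2.34. The summed level of the 12 T-cell markers moved with the Lyso group. Of the 12, 10 had more than 3 counts in some Lyso library and none was at 0 throughout. In WT, 9 of the 12 were at 0, among them Gzmb and Cd3e, which averaged 5.948 and 0.4015 CPM in Lyso. Of the 5 markers tested, 4 were called higher in Lyso than in WT. The exception was Lck, whose libraries overlapped between the groups. Lck stood at 6.128, 5.868 and 5.345 CPM in Lyso and at 6.792, 1.267 and 1.356 CPM in WT. The part of these markers in the Ralgds level was not tested. In bulk libraries, fewer cells of a type and less RNA per cell cannot be told apart.

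**Figure D1:**
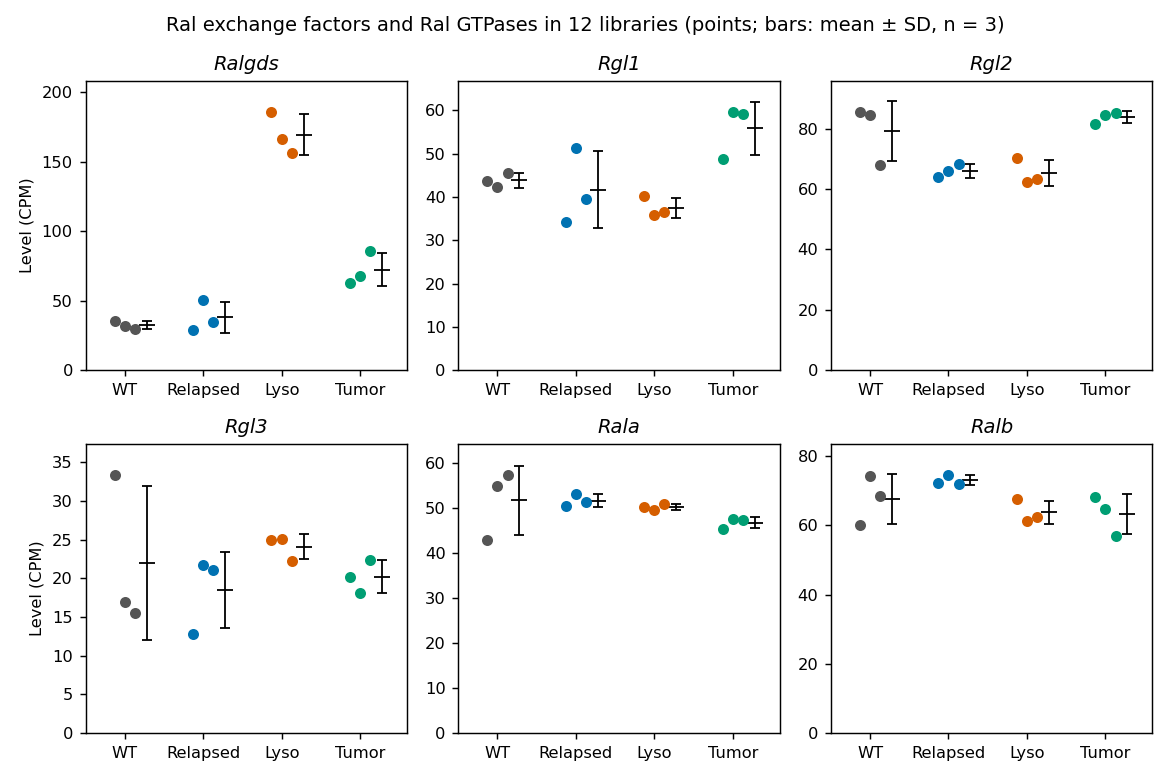
Level of the 6 genes in each of the 12 libraries, in TMM-scaled CPM (y axis, starting at 0), by group (x axis), with 1 point for each library and bars for the group mean ± SD (n = 3). Ralgds lies between 156.4 and 185.7 CPM in Lyso and between 29.10 and 85.68 CPM in the other 9 libraries, while the other 5 genes lie between 12.82 and 85.47 CPM in all 12.

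The comparison of sorted tumor cells with relapsed lines asked whether Ralgds differed between cells taken straight from a relapsed tumor and cells grown from one. Neither group served to choose the gene, although the fit drew its estimate of the spread from all 12 libraries. Ralgds rose in Tumor by 0.93 on the log2 scale (SE 0.19, 95% interval 0.52 to 1.33), a 1.90-fold difference, with an adjusted p of 0.003594 by edgeR's quasi-likelihood test. Every Tumor library lay above every Relapsed library. It passed the test in all 6 other ways of processing the counts, with an adjusted p of 0.02571 when the fit held only these 2 groups and so used no Lyso or WT library, and with each library left out in turn, over which the log2 difference ran from 0.76 to 1.18, though it falls short of a minimum log2 fold change of 1. Of the 14924 genes, 19.6% were called in this comparison, 11.8% as higher in Tumor. Against WT, Ralgds rose in Tumor by 1.18 on the log2 scale (SE 0.20, adjusted p = 0.001354), a 2.26-fold difference. That comparison shares the WT libraries with the one behind the choice of the gene, and 19.0% of all genes were called in it. The log2 difference was 1.27 against WT 3 alone and 1.10 against the shallow WT 1 and WT 2.

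Host-cell markers separated the same groups. All 10 fibroblast markers exceeded 3 counts in every Tumor library and all 10 were called higher in Tumor than in Relapsed. The summed level of the 10 myeloid markers was 52.33 to 78.15 CPM in Tumor and 12.1 to 46.76 CPM in Relapsed, and that of 8 endothelial markers was 29.66 to 37.24 CPM against 7.449 to 10.18 CPM. Of those tested, 7 of 8 myeloid and 5 of 6 endothelial markers were called higher in Tumor than in Relapsed. The exceptions were Cd68, with means of 9.079 CPM in Tumor and 14.34 CPM in Relapsed, and Egfl7, with 8.042 and 8.507 CPM. T-cell markers came to 5.435 to 15.54 CPM in Tumor and to 0.4686 to 2.157 CPM in Relapsed. Of the 5 tested, 3 were called higher in Tumor than in Relapsed. Cd8a and Gzmb were among these, though their libraries overlapped between the groups. Cd3e, Cd3d and Cd8b1 were at 0 in all 3 Tumor libraries. The part of all these markers in the Ralgds difference between Tumor and Relapsed was not tested. Tumor libraries were also shallower, with 194, 337 and 364 reads on Ralgds against 379, 752 and 577 in Relapsed.

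Between the relapsed lines and WT, Ralgds was not called. Its log2 difference was 0.25 (SE 0.20, 95% interval -0.18 to 0.67, adjusted p = 0.6798), and without the line Rel it was -0.0021. None of the 6 genes was called in this comparison and no member separated the groups, where 0.0402% of all genes were called by edgeR's quasi-likelihood test and 10.6% did not overlap. At an unadjusted p under 0.05 edgeR counted 1 of the 6, Rgl2, and DESeq2 called 0.

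**Figure D2:**
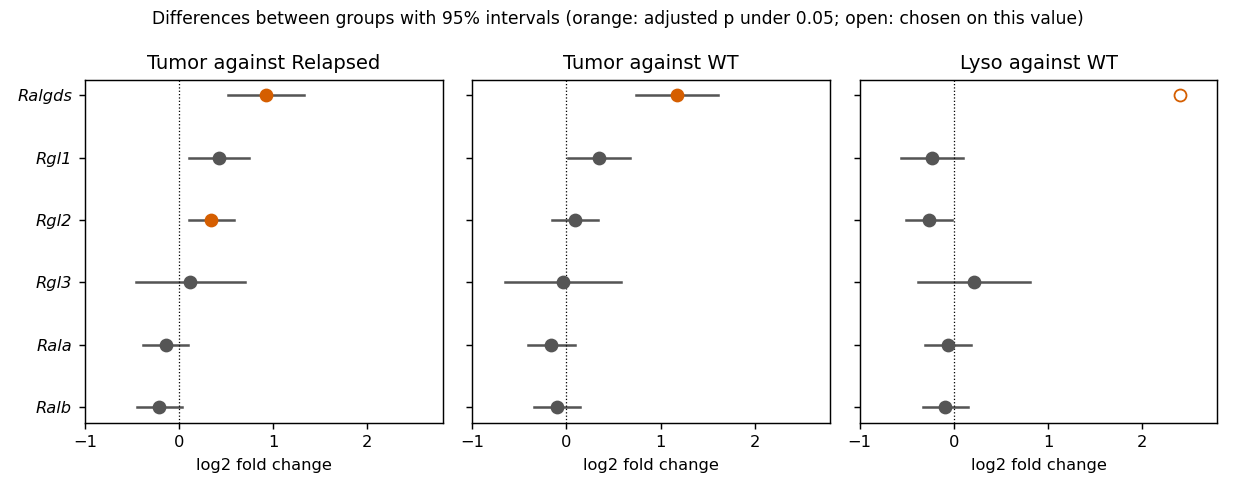
Log2 fold change (x axis) of the 6 genes (y axis) in Tumor against Relapsed, Tumor against WT and Lyso against WT, with 95% intervals from edgeR's quasi-likelihood fit as lines, called genes in orange, and the value of Ralgds in Lyso as an open circle with no interval because the gene was chosen on it. The points of Ralgds (0.93, 1.18 and 2.40) lie furthest from 0 in each panel, and Rala and Ralb have intervals that include 0 in all 3.

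Rgl1 (ENSMUSG00000026482, chr1:152516760-152766351, minus strand) is a RalGEF of the same domain layout as Ralgds. Its level was 43.58, 42.22 and 45.58 CPM in WT and 40.16, 35.86 and 36.44 CPM in Lyso, so the Lyso libraries were all below WT. The log2 difference of -0.23 (95% interval -0.56 to 0.10) did not pass the test (adjusted p = 0.4582). In Tumor Rgl1 stood at 48.76, 59.58 and 59.08 CPM, above every WT library but overlapping the relapsed lines at 34.09, 51.35 and 39.48 CPM. Tumor and Relapsed differed by 0.43 on the log2 scale (95% interval 0.11 to 0.74) with an adjusted p of 0.06114. It was called with RLE scaling (adjusted p = 0.04972), with DESeq2 (0.04635) and without the line Rel (0.008647). Against Tumor, Rgl1 was lower in Lyso by a called difference of -0.58 (SE 0.15, adjusted p = 0.01268), in a comparison where 24.7% of all genes were called, 14.2% as lower and 10.5% as higher in Lyso. The call was lost without Lyso 2 (adjusted p = 0.05474), Lyso 3 (0.05275), Tumor 3 (0.0591) or Tumor 4 (0.05114).

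Rgl2 (ENSMUSG00000041354, chr17:33929543-33937687, plus strand), known also as Rlf, is a further Ras-binding exchange factor. The Tumor libraries held 81.59, 84.54 and 85.21 CPM, which was more than ITF1, Rel and ITM at 63.81, 65.81 and 68.42 CPM. Rgl2 was called higher in Tumor by 0.34 on the log2 scale (SE 0.11, adjusted p = 0.04433). This call was lost in 4 of the 6 other ways of processing and with each of the 6 libraries left out in turn, where the adjusted p ran from 0.05092 to 0.1344. The WT libraries overlapped both groups' range, with 85.47 and 84.44 CPM in the shallow WT 1 and WT 2 and 67.82 CPM in WT 3. In Lyso the level was 70.34, 62.32 and 63.25 CPM, a log2 difference from WT of -0.27 (95% interval -0.51 to -0.02, adjusted p = 0.223), and a called difference from Tumor of -0.36 (adjusted p = 0.03095) that was kept with 1 of 6 libraries left out, Lyso 1, and lost with any of the other five (adjusted p from 0.06906 to 0.1219).

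Rgl3 (ENSMUSG00000040146, chr9:21968711-21989446, minus strand), the remaining Ras-binding exchange factor, was not called in any of the 6 comparisons. It was counted at 33.39, 16.89 and 15.51 CPM in WT, so WT 1 alone set most of the spread. The relapsed lines held 12.82, 21.69 and 21.03 CPM, Lyso 24.99, 25.06 and 22.27 CPM and Tumor 20.15, 18.12 and 22.36 CPM. The log2 difference of Lyso from WT was 0.22, and its interval of -0.37 to 0.81 included 0.

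Rala (ENSMUSG00000008859, chr13:17880571-17944239, minus strand) and Ralb (ENSMUSG00000004451, chr1:119470305-119504794, minus strand) encode the GTPases that these exchange factors activate. Rala lay at 43.02, 54.89 and 57.50 CPM in WT, at 50.45, 53.22 and 51.46 CPM in Relapsed, at 50.25, 49.55 and 50.94 CPM in Lyso and at 45.51, 47.70 and 47.31 CPM in Tumor. The spread within WT covered the whole range of the other groups. From WT, Rala differed by -0.06 in Lyso (95% interval -0.30 to 0.18), by -0.16 in Tumor (-0.41 to 0.09) and by -0.02 in Relapsed (-0.26 to 0.22), all on the log2 scale. Ralb lay at 60.00, 74.31 and 68.58 CPM in WT, at 72.26, 74.64 and 72.07 CPM in Relapsed, at 67.60, 61.29 and 62.36 CPM in Lyso and at 68.26, 64.61 and 56.96 CPM in Tumor. Its log2 differences from WT were -0.09 in Lyso (95% interval -0.33 to 0.15), -0.10 in Tumor (-0.35 to 0.14) and 0.11 in Relapsed (-0.13 to 0.34). Neither GTPase was called in any comparison. Between Tumor and Relapsed both were lower in every Tumor library, by -0.14 for Rala (95% interval -0.38 to 0.10, adjusted p = 0.4105) and by -0.21 for Ralb (-0.44 to 0.03, adjusted p = 0.2085), and 37.5% of all genes had groups that did not overlap in that comparison.

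Counted together, 0 of the 5 genes other than Ralgds were called in Lyso against WT by edgeR's quasi-likelihood test, where 4.71% of all genes were called. One of them, Rgl2, had an unadjusted p under 0.05, and DESeq2 called 0. Rgl1 did not overlap between Lyso and WT, as did 27.4% of all genes. Tumor against WT shares the WT libraries with the choice of Ralgds. In it Ralgds was called and none of the other 5 genes was, where 19.0% of all genes were called. Ralgds and Rgl1 had groups that did not overlap there, as had 36.1% of all genes. In Tumor against Relapsed, 2 of 6 were called, Ralgds and Rgl2, both higher, where 19.6% of all genes were called, and the call of Rgl2 was lost with any 1 library left out. Lyso against Relapsed gave 0 calls among the other 5, with 0 at an unadjusted p under 0.05 and 0 by DESeq2, where 7.69% of all genes were called by edgeR.

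Since CPM grows with the length of a gene, the members were compared with each other as CPM per kb of exon, a level per length. In WT, Rgl2 led the Ras-binding exchange factors with a mean of 17.13 CPM per kb, ahead of Rgl1 at 6.341, Rgl3 at 5.589 and Ralgds at 5.269. Every WT library had more Rgl1 than Ralgds on this scale, and Rgl3, with an SD of 2.536 CPM per kb, overlapped both. With the longest transcript as the length, the WT mean was 7.36 for Ralgds and 6.519 for Rgl3, so their order depends on the length used. In Lyso, Ralgds was at 27.51 CPM per kb and Rgl2 at 14.12. Of the summed per-length level of the 4 exchange factors, Ralgds held 14.81%, 15.38% and 16.01% in the WT libraries, 17.68%, 23.11% and 17.83% in ITF1, Rel and ITM, 25.55%, 25.89% and 29.86% in Tumor and 52.4%, 51.85% and 50.76% in Lyso. Rgl2 held 47.27%, 53.88% and 48.84% in WT and 26.43%, 25.89% and 27.34% in Lyso. The sum itself was 30.02 to 39.09 CPM per kb in WT, 26.73 to 35.36 in Relapsed, 40.08 to 46.59 in Tumor and 50.02 to 57.55 in Lyso, and the Lyso values rest on the gene that was chosen for being high there. Rala and Ralb had a per-length ratio of 1.30 ± 0.11 in WT, 1.21 ± 0.02 in Relapsed and 1.34 in Lyso. With the longest transcript as the length these ratios were 0.78, 0.7226 and 0.8055, so the order of the pair depends on the length used.

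**Figure D3:**
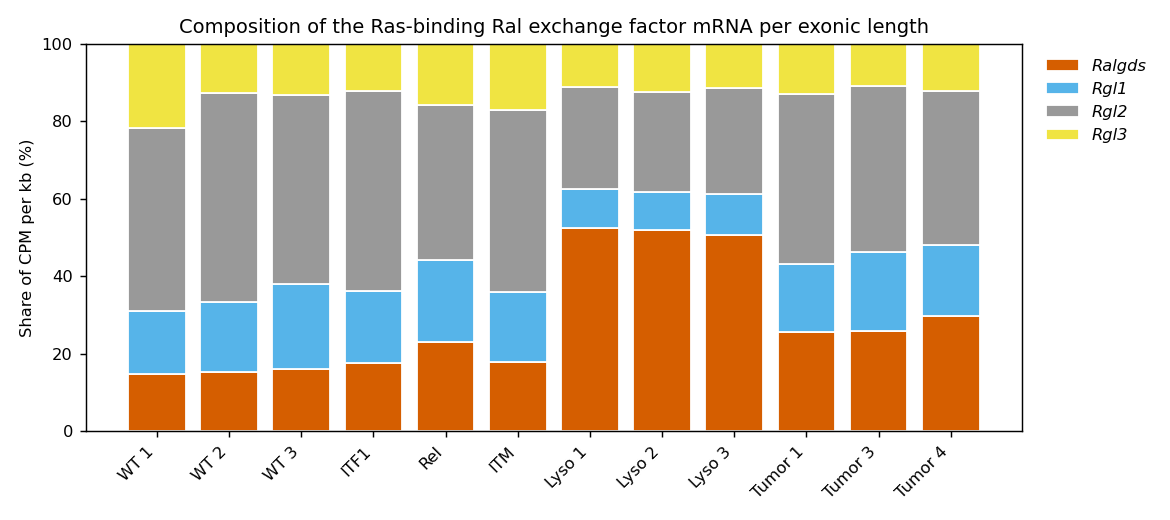
Share of the summed per-length level (CPM per kb of exon) of Ralgds, Rgl1, Rgl2 and Rgl3 held by each gene (y axis, percent from 0, stacked bars with a color for each gene) in each of the 12 libraries (x axis). Ralgds holds 50.76% to 52.4% in Lyso and 14.81% to 29.86% elsewhere.

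Around these genes, 43 others of Ras and Ral signaling were looked up in 6 lists, and 41 were tested, Reps2 and Pik3cg having too few counts. In Lyso against WT, 3 were called higher and 1 lower. In Tumor against WT 5 were higher and 5 lower, and in Tumor against Relapsed 2 were higher and 4 lower. The share of all genes called was 3.5% higher and 1.21% lower, 12.1% and 6.94%, and 11.8% and 7.74% in these comparisons. In Relapsed against WT edgeR and DESeq2 each called 0 of the 41, and 7 had an unadjusted p under 0.05 in edgeR. The median log2 difference over the 41 was -0.12, 0.03 and -0.01 in the first 3 comparisons, beside -0.005, 0.001 and -0.007 over all genes tested.

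Among upstream Ras-family GTPases, Mras, which acts with Shoc2 on Raf, rose in Lyso. It was at 115.9, 109.2 and 103.1 CPM in Lyso and at 37.36, 27.02 and 21.82 CPM in WT, a log2 difference of 1.99 (SE 0.30, adjusted p = 0.002007). The relapsed lines, at 22.65, 18.81 and 10.54 CPM, and Tumor, at 11.70, 16.71 and 25.42 CPM, lay below every Lyso library. Hras, the founding Ras, fell in Tumor to 36.41, 40.06 and 46.14 CPM from 58.30, 89.93 and 80.97 CPM in WT (log2 difference -0.91, adjusted p = 0.00202) and from 71.64, 54.49 and 65.30 CPM in Relapsed (-0.64, adjusted p = 0.01363). Rras2, also called TC21, fell in Tumor by 0.90 on the log2 scale against Relapsed (adjusted p = 0.01444) and by 0.78 against WT (adjusted p = 0.03649). Rit1 fell in Tumor against WT by 1.15 (adjusted p = 0.005259). Of the 9 GTPases, 1 was called in Lyso against WT, as higher, where 4.71% of all genes were called, 3.5% as higher. In Tumor 3 were called against WT and 2 against Relapsed, all as lower. In these comparisons 19.0% and 19.6% of all genes were called, 6.94% and 7.74% as lower.

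Of the 9 exocyst genes, Exoc6 and Exoc8 were called. Of all genes, 4.71% were called in Lyso against WT, 19.0% in Tumor against WT and 19.6% in Tumor against Relapsed. Exoc6 rose in Lyso, with 40.35, 50.49 and 48.75 CPM against 24.34, 31.67 and 26.95 CPM in WT (log2 difference 0.75, SE 0.13, adjusted p = 0.005626), and was called in Tumor against WT as well (0.42, adjusted p = 0.04517). Exoc8 fell in Tumor, where its counts were only 20, 47 and 30, or 6.501, 9.460 and 7.061 CPM, against 25.34, 22.29 and 21.21 CPM in Relapsed (log2 difference -1.56, SE 0.23, adjusted p = 0.0003955). Against WT the difference was -1.51 (adjusted p = 0.0008518). Exoc2, which encodes the subunit Sec5, was not called in these 3 comparisons.

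Ral regulators other than the members held no call in Lyso against WT, where 4.71% of all genes were called. In Tumor against WT, 1 of 2 RalGEFs without a Ras-association domain and 1 of 3 genes of the Ral GTPase-activating complex were called higher. In that comparison 12.1% of all genes were called higher. Ralgapa1, a catalytic subunit of the complex that turns Ral off, rose in Tumor against WT by 0.44 (adjusted p = 0.03686), with means of 65.39 and 48.09 CPM. Ralgps2, a RalGEF without a Ras-association domain, rose there too (adjusted p = 0.01127), from counts of 2, 0 and 6 in WT to 5, 16 and 62 in Tumor. Neither was called in Tumor against Relapsed.

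The other Ras effectors held calls in all 3 comparisons. Pik3cd, the delta catalytic subunit of phosphatidylinositol 3-kinase, which is abundant in leukocytes, rose in Lyso to 54.59, 51.14 and 46.73 CPM from 17.55, 23.64 and 24.59 CPM in WT (log2 difference 1.18, SE 0.17, adjusted p = 0.001461). Afdn, which encodes the junction protein afadin, fell in Lyso by 0.52 (adjusted p = 0.01288). Plce1, a phospholipase C that binds Ras, had no count in the 3 WT libraries and 8, 21 and 11 counts in Tumor, at least 22.9-fold higher against a floor of 3 counts over the group (adjusted p = 0.0006721). It was called against Relapsed as well, where the counts were 1, 0 and 0 (adjusted p = 0.0001221). Rassf5, also abundant in leukocytes, rose in Tumor by 1.93 against WT (adjusted p = 0.04034) and by 1.62 against Relapsed (adjusted p = 0.04095), and Araf fell by 0.41 (adjusted p = 0.03932) and 0.38 (adjusted p = 0.04785). The host and T-cell marker levels given above moved with these groups, and their part in these calls was not tested. With each library left out in turn, Exoc6, Mras and Pik3cd stayed called in Lyso against WT and Exoc8, Hras, Rit1 and Plce1 in Tumor against WT, whereas Afdn was called in 2 of 6 such fits, Rassf5, Araf, Rras2 and Exoc6 in 1 of 6, Ralgapa1 in 3 of 6 and Ralgps2 in 4 of 6. In Tumor against Relapsed, Exoc8 and Plce1 stayed called in all 6 such fits, Hras and Rras2 in 4, Araf in 2 and Rassf5 in 1. Under other ways of processing the counts, the Tumor against WT call held in 3 of 9 for Exoc6, in 4 of 9 for Ralgapa1 and for Araf, in 5 of 9 for Rras2, in 6 of 8 for Rassf5 and in 5 of 6 for Ralgps2, and Afdn was called in Lyso in 7 of 9. In Tumor against Relapsed the call held in 3 of 6 for Araf and in 4 of 5 for Rassf5.

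**Figure D4:**
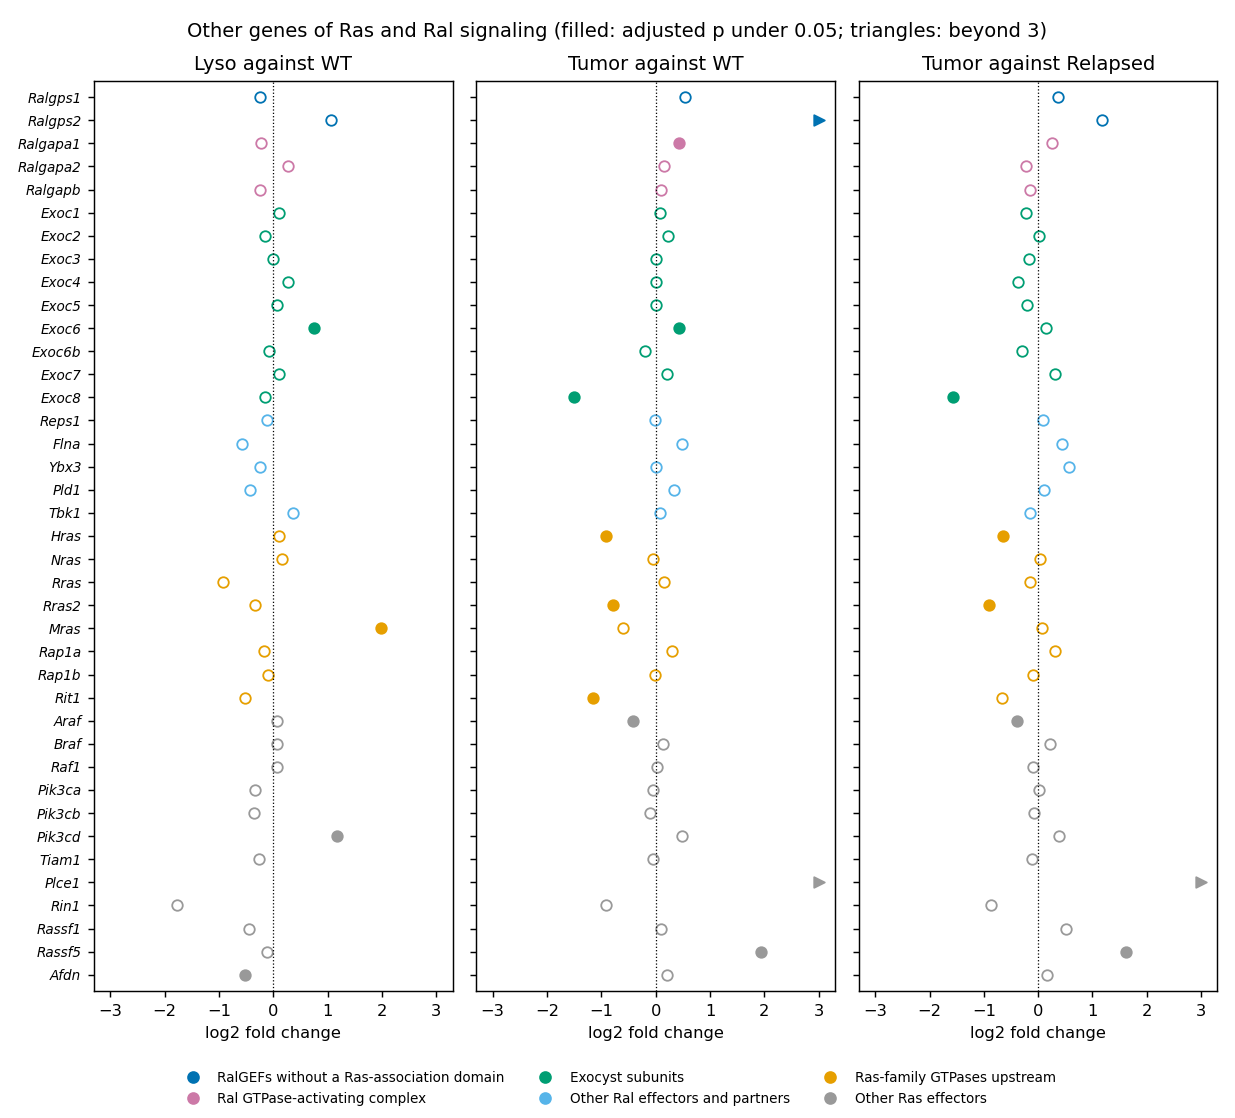
Log2 fold change (x axis) of other genes of Ras and Ral signaling (y axis) in Lyso against WT, Tumor against WT and Tumor against Relapsed, with a row for each gene, a color for each list, filled points for called genes (adjusted p under 0.05, edgeR's quasi-likelihood test), triangles for values beyond 3 and no point for Plce1 where both groups were at the count floor. Mras at 1.99 and Pik3cd at 1.18 are the called genes furthest to the right in Lyso against WT, and Exoc8 at -1.51 and -1.56 is the called gene furthest to the left in both Tumor comparisons.

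The genes whose log2 CPM followed that of Ralgds most closely over the 12 libraries were Tmco4 (Pearson r = 0.988), F830016B08Rik (0.981), Tcf7 (0.975), Rnf19b (0.975) and Pacsin1 (0.972). The 12 points share 4 groups and their depths, so these values are a description with no test. Tmco4 averaged 14.95, 16.52, 38.46 and 22.06 CPM in WT, Relapsed, Lyso and Tumor. Tcf7, a transcription factor known from T-cell development, averaged 7.720, 6.091, 116.2 and 26.54 CPM, and Rnf19b, a ubiquitin ligase known from natural killer cells, 24.24, 22.79, 128.1 and 49.54 CPM. F830016B08Rik averaged 0, 0.089, 5.575 and 1.374 CPM, and Pacsin1 0.977, 0.764, 7.181 and 2.382 CPM. In WT the means of these last genes lay under the 1.698 CPM that 3 counts stand for in WT 1. All of these had the same order of Lyso first and Tumor second, which comes with choosing them for following Ralgds. Among the members, r with Ralgds was 0.468 for Rgl3, -0.086 for Rgl1, -0.208 for Rala, -0.230 for Rgl2 and -0.506 for Ralb, so no relative followed it as closely.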

How the data were processed

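RNA-seq libraries of 12 samples were used, each 1 column of raw counts per gene, that the authors deposited without normalization after trimming with fastp 0.19.6 and alignment to GRCm38 with STAR 2.7.1a, as the submitters' processing notes name them. The strand setting and the annotation release are not given in the sources used here. Reads that match several genes are not counted. The table's 4 rows that name no gene were left out. Genes took 36.17% to 39.36% of the reads of a library, and 43.53% to 44.77% overlapped no feature. Symbols, positions and lengths came from GENCODE M21 (GRCm38), which held 54165 of 54232 identifiers. No exon of a member overlaps an exon of another gene. Promoters came from RefSeq.

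Differential expression used the quasi-likelihood test of edgeR (glmQLFit, glmQLFTest; version 4.0.16, R 4.3.3) after TMM and filterByExpr on all 12 libraries at once, with Benjamini-Hochberg adjustment over the 14924 genes tested, and a gene was called at an adjusted p under 0.05. Tables were made in Python 3.11.15. The fit was tested on simulated data. The members, the lists, the motifs and the tests were chosen with earlier results of these data known. Named genes are the 6 members, up to 4 called genes for each list and comparison, and the 5 genes with the highest correlation with Ralgds. Alternatives were RLE scaling, library size alone, DESeq2 1.42.0, other filters, a fit of only the compared groups, a replicate block, subsets of WT, a minimum log2 fold change of 1, and each library left out in turn. No pair of replicates was within sampling noise. Values of some genes of the lists are not reported here, though the counts over the lists include them.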

Additional observations from a re-analysis of the deposited data

How the results depend on the processing

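Depth limits the shallow WT and Tumor libraries most. Among single-gene values under the alternatives, 636 kept direction and side of the threshold, 92 lost the call, 3 gained it and 29 changed sign. No called value changed sign, and the cause of the changes was not tested. The fit with WT 1 and WT 2 as the only controls is the same as the fit without WT 3. Its values are counted under both names, here and in the calls kept per gene above. With WT 1 and WT 2 as the only controls the log2 differences that changed sign were Rgl3 (-0.025) and Rala (0.038) in Lyso against WT, Rgl2 in Tumor against WT (-0.017) and Rala in Relapsed against WT (0.067). With WT 3 alone they were Rgl3 in Tumor (0.36) and in Relapsed (0.26). At a minimum of 10 counts they were Rgl3 in Tumor against WT (0.0037) and Rgl2 in Lyso against Relapsed (0.0053). Rala in Relapsed against WT was 0.012 with no filter, and Ralb in Lyso against Tumor was -0.020 with library size alone and -0.084 with the replicate block. Leaving out 1 library at a time, the range was -0.025 to 0.59 for Rgl3 and -0.163 to 0.038 for Rala in Lyso against WT, and -0.017 to 0.151 for Rgl2 and -0.287 to 0.329 for Rgl3 in Tumor against WT. In Relapsed against WT it was -0.0021 to 0.411 for Ralgds, -0.253 to 0.048 for Rgl1, -0.413 to 0.203 for Rgl3 and -0.134 to 0.067 for Rala. It was -0.088 to 0.243 for Rgl3 in Tumor against Relapsed, -0.278 to 0.024 for Rgl1 and -0.086 to 0.026 for Rgl2 in Lyso against Relapsed, and -0.057 to 0.072 for Ralb in Lyso against Tumor. Members called in Tumor against Relapsed numbered 2, but 1 with library size alone, with no filter, at 10 counts or with only the compared groups fitted, 0 with a log2 fold change over 1, and 1 to 2 with a library left out. In Lyso against Tumor they numbered 2, but 1 with no filter, 0 with a log2 fold change over 1, and 0 to 2 with a library left out. Same-numbered libraries of WT, Lyso and Tumor did not deviate together (correlations of their deviations from -0.008 to 0.065), so no pairing was seen. With WT 1, WT 2 and the Tumor libraries shallow, this check cannot exclude a shared preparation. The number of members called with the replicate block was 1 in Lyso against Tumor (Rgl2 at an adjusted p of 0.1107), 0 in Lyso against WT and 1 in Tumor against WT. Pathway calls went from 10 to 5 in Tumor against WT at 10 counts, from 0 to 1 in Relapsed against WT with no filter, and from 6 to 10 with DESeq2 and to 3 at 10 counts in Tumor against Relapsed. With the longest transcript as length the Ralgds share in Lyso was 52.58%, and the Rala to Ralb ratio was 0.78 in WT, 0.7226 in Relapsed, 0.8055 in Lyso and 0.7602 in Tumor.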

Other observations

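The genes that lie beside the members on the chromosome were looked up to see whether their levels moved with them, and those named here were chosen after their values were seen. Tapbp, which encodes the peptide-loading chaperone tapasin, ends 250 bases ahead of Rgl2 on the same strand. It averaged 49.11 ± 22.21 CPM (SD) in WT, 51.93 ± 25.06 CPM in Relapsed, 328.0 ± 1.776 CPM in Lyso and 98.05 ± 58.11 CPM in Tumor. Tapbp rose in Lyso against WT by 2.69 on the log2 scale (SE 0.47, adjusted p = 0.005469, edgeR's quasi-likelihood test). In that comparison 4.71% of all genes were called, and Rgl2 next to it was not. Since Tapbp was named for its values, its p serves as a description. On either side of Ralgds, Gbgt1 and Gtf3c5, at 7709 and 13229 bases, differed between Lyso and WT by 0.03 and 0.09 on the log2 scale and were not called (adjusted p = 0.9987 and 0.8639). Arpc5, which begins 190 bases from Rgl1 on the other strand and encodes a subunit of the Arp2/3 actin complex, was not called in Lyso or Tumor against WT.

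Of the 41 tested genes of Ras and Ral signaling, 3 were called higher and 3 lower in Lyso than in Relapsed, where 7.69% of all genes were called in either direction, and 5 higher and 10 lower in Lyso than in Tumor, where 10.5% of all genes were higher and 14.2% lower.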
